A study of Mus musculus with 6 samples.

Results

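To find regulatory DNA that lost accessibility on the way from fibroblasts to pluripotency and had it again at the end, ATAC-seq values were followed in autosomal regions of 6 mouse libraries. ATAC-seq counts the ends that a transposase cuts in exposed DNA, so that more reads in a region mean more open chromatin. A region was called reopened when it had at least 100 normalised counts in fibroblasts, below 50 normalised counts at each of days 8, 9 and 10, and at least 100 normalised counts in induced pluripotent stem cells (iPSCs). Normalised counts are reads divided by the authors' size factor for the library. Of 223596 regions in the table and 218231 on chromosomes 1 to 19, 2196 autosomal regions met this rule, which is 1.01% of autosomal regions. These 5 libraries chose the regions, so their levels there are a description. Day 12 was not used to choose them. Comparisons of day 12 with days 8 to 10 or with iPSC still involve values that the rule chose.

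Open chromatin marks promoters, enhancers and insulators that are held free of nucleosomes by bound transcription factors. When Oct4, Sox2, Klf4 and c-Myc are forced on in fibroblasts, enhancers of the fibroblast program typically lose accessibility early, and many enhancers of the pluripotency program gain it late. An element that serves both programs, or different factors in each, can be open at both ends of this path whatever happens in between.

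All cells were female and came from a cross of Musculus mothers, with a GFP transgene on the X chromosome, and Castaneus fathers. Mouse embryonic fibroblasts (MEFs) received lentiviruses with the M2rtTA activator and with Oct4, Sox2, Klf4 and c-Myc under doxycycline control, and cells whose GFP-bearing X was the inactive one were taken by sorting before any doxycycline (MEF day 0). Cells then grew in mouse embryonic stem cell medium with doxycycline and ascorbic acid, and those positive for SSEA1 were collected on days 8, 9, 10 and 12 as intermediates. The iPSCs came from picked colonies grown on in that medium without doxycycline or ascorbic acid, and every sample title calls the cells GFP-negative. The low libraries of the rule thus shared the SSEA1 sort, induced factors and ascorbic acid. The high libraries had neither doxycycline nor ascorbic acid. Between the low and high libraries, stage of reprogramming and these conditions cannot be told apart. Day 12 had the same sort, induced factors and ascorbic acid as days 8, 9 and 10, so these did not differ between day 10 and day 12. MEF medium was used only for the MEFs. Each time point was 1 library, so no difference has a replicate check and no p-value was computed. In such bulk samples, fewer cells with an open region and less accessibility per cell cannot be told apart.

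The libraries held 22067333 to 32844411 reads in regions. MEF day 0 and iPSC stood apart from the intermediates in the spread of their values. Over regions, log2 values had an SD of 2.56 in MEF day 0 and 2.06 in iPSC, against 1.58 to 1.73 from day 8 to day 12, and the share of autosomal regions at the lowest value of 1 read was 5.87% and 2.17%, against 0.0729% to 0.179%. The reopened regions were high in exactly those libraries with the wider spread, and the part of this in the count of regions was not tested. When all libraries were given the same distribution by quantile normalisation, 1570 regions met the rule, and 1476 of them were among the 2196. With equal autosomal totals 909 regions met the rule, and 789 of them were among the 2196. This scaling raised every other library against MEF day 0 by 1.01 to 1.32 on the log2 scale.

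Few of the regions open at both ends were closed in between. There were 35239 autosomal regions with at least 100 normalised counts in both MEF day 0 and iPSC. Of these, 30640 (86.9%) had at least 50 at days 8, 9 and 10 alike, 1379 (3.91%) fell below 50 at 1 of the days, 1024 (2.91%) at 2 of them, and the 2196 reopened regions (6.23%) at all 3. Of 20997 autosomal regions that were open in MEF day 0 and below 50 at days 8, 9 and 10, the reopened ones were 10.5%, whereas 70.9% (14887 regions, called fibroblast-only here) were below 50 in iPSC as well. Of 12721 regions that were below 50 at days 8, 9 and 10 and open in iPSC, 17.3% were reopened and 69.4% (8825 regions, called iPSC-only) had been below 50 in MEF day 0. Over all 102917 autosomal regions below 50 at days 8, 9 and 10, 20997 were open in MEF day 0 and 12721 in iPSC. Whether more or fewer regions were reopened than these shares alone would give was not tested. The fibroblast-only and iPSC-only classes serve as comparisons below.

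The median reopened region had 209 normalised counts in MEF day 0 (quartiles 137 and 368). At days 8, 9 and 10 the medians were 29.9 (21.7 and 38.0), 28.6 (20.7 and 36.4) and 32.4 (23.7 and 40.3). The median was 61.2 at day 12 (45.0 and 78.3) and 142 in iPSC (117 and 193). In reads the medians were 104, 33, 40, 41, 68 and 113 in the same order. The highest value of any reopened region was 3444 normalised counts in MEF day 0, and 702 in iPSC, taken over each library separately.

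**Figure D1:**
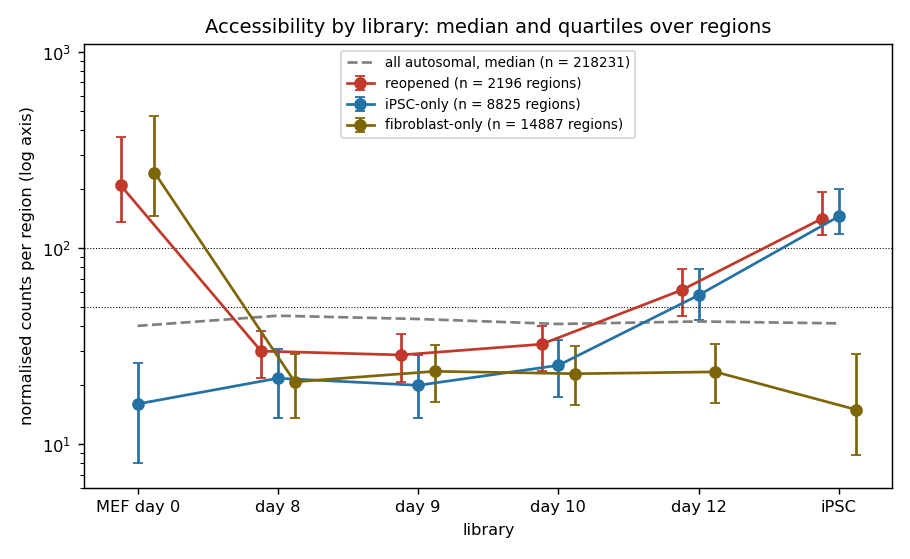
Normalised counts per region on a log axis in the 6 libraries, as medians (points) with lower and upper quartiles over regions (bars), for reopened, iPSC-only and fibroblast-only regions, with the median of all autosomal regions dashed and the cutoffs of 50 and 100 dotted. At day 12, which chose none of the sets, the reopened regions had a median of 61.2 and the iPSC-only regions 57.6, while the fibroblast-only regions stayed at 23.4.

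Closed here means low and not empty. The lowest value of any reopened region was 3 reads on day 8, 2 reads on day 9 and 3 reads on day 10, not all in the same region. Ranked among all autosomal regions of the same library, which needs no scaling between libraries, the median reopened region stood at percentile 76.5 in MEF day 0. It stood at percentiles 35.8, 35.4 and 41.3 on days 8, 9 and 10, at 63.0 on day 12 and at 79.2 in iPSC. The typical reopened region thus went from the upper to the middle and lower ranks and not to the bottom. The highest of days 8, 9 and 10 was below 25 normalised counts in 351 of the 2196 regions (16.0%) and below 10 in 6. It lay between 40 and 50 in 895 (40.8%), close to the cutoff. Near the other cutoffs, 320 regions (14.6%) had fewer than 120 normalised counts in MEF day 0 and 636 (29.0%) fewer than 120 in iPSC. The lower of MEF day 0 and iPSC exceeded the highest of days 8, 9 and 10 by a median factor of 3.81 (quartiles 2.93 and 5.18), and by at least 4 in 1017 regions (46.3%), where 1.32% of autosomal regions reached that factor. The rule itself sets these factors.

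Among the days of low accessibility no day was the lowest throughout. Day 8 was lowest in 772 regions, day 9 in 909 and day 10 in 515. Day 10 was the highest of the days in 925 regions, day 8 in 698 and day 9 in 573.

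The single regions at each cutoff show how little separates members from others. The region in row 3517 (chromosome 1) was just inside with 50 reads in MEF day 0, 100.4 normalised counts, and that in row 5287 (chromosome 1) was just outside with 49 reads, 98.4 normalised counts. At days 8, 9 and 10 the highest value was 49.97 normalised counts in row 10048 and 50.5 in row 12409, both on chromosome 1. In iPSC row 279 had 80 reads, 100.3 normalised counts, and row 1050 had 79 reads, 99.0 normalised counts, also on chromosome 1. A difference of 1 read at a cutoff is within counting error. At these depths the cutoffs themselves keep the 95% exact Poisson intervals of the open libraries above those of days 8, 9 and 10, so that a comparison of these intervals says nothing further about the regions.

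The 6 regions with the deepest closing show the course most plainly. The table gives no coordinates, so each region is named by its row and chromosome, without gene or sequence. Row 172921 on chromosome 6 had 79 reads in MEF day 0, then 5, 9, 7 and 27 on days 8, 9, 10 and 12, and 108 in iPSC. In normalised counts this was 159, 4.52, 6.42, 5.53, 24.3 and 135, a factor of 21.1 between the lower open and the highest closed library. Its value at day 12 was above those of days 8 to 10, and its iPSC to MEF ratio was 0.853 on the authors' scale and 1.72 with equal autosomal totals.

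Row 201282 on chromosome 8 was the strongest of the 6 in MEF day 0. It went from 1719 normalised counts there to 23.5, 28.6 and 29.2 on days 8, 9 and 10, and then to 117 on day 12 and 491 in iPSC. Row 108429 on chromosome 19 had 711, 12.7, 16.4, 19.7, 56.7 and 352 normalised counts in the same order. Their iPSC to MEF ratios were 0.286 and 0.495 on the authors' scale and 0.575 and 0.997 with equal autosomal totals.

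The other 3 had weaker values at both ends. Row 85220 on chromosome 16 had 175, 5.43, 6.42, 9.48, 38.7 and 168 normalised counts. Row 130923 on chromosome 3 had 145, 4.52, 7.85, 8.69, 31.5 and 157. Row 12521 on chromosome 1 had 169, 9.05, 8.57, 8.69, 18.0 and 144. The iPSC to MEF ratios of these 3 were 0.961, 1.08 and 0.854 on the authors' scale and 1.94, 2.18 and 1.72 with equal autosomal totals, and all 3 were below 50 at day 12.

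**Figure D2:**
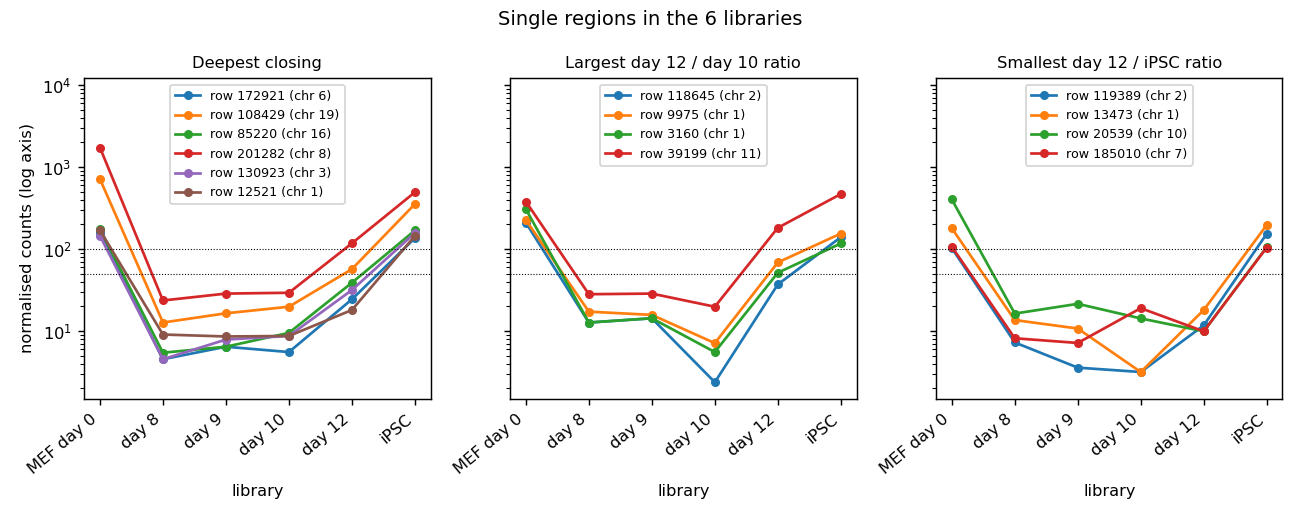
Normalised counts on a log axis in the 6 libraries for single reopened regions chosen by rule, with 1 line per region and the cutoffs of 50 and 100 dotted. Left are the 6 with the deepest closing, whose highest value at days 8 to 10 was 29.2, in the middle the 4 with the largest ratio of day 12 to day 10, and at right the 4 that were lowest at day 12 relative to iPSC, at 9.90 to 18.0 normalised counts.

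To ask whether reopening had begun by day 12, the level in the library outside the rule was examined. Of the 2196 reopened regions, 1491 (67.9%) had at least 50 normalised counts at day 12, whereas 13.4% of all autosomal regions below 50 at days 8, 9 and 10 did, and 43.8% of all autosomal regions. Regions at this level are called open at day 12 from here on, which is a lower bar than the 100 of the rule. The share was 33.3% among the 351 regions that were below 25 at days 8, 9 and 10. At least 100 normalised counts, the level that all of them had in iPSC, was reached by 242 (11.0%), against 1.46% of the regions below 50 at days 8, 9 and 10 and 23.3% of all autosomal regions. Day 12 was above each of days 8, 9 and 10 in 2018 reopened regions (91.9%), where the shares were 48.2% of the regions low on those days and 35.7% of all autosomal regions. Day 12 was above iPSC in 4 reopened regions (0.182%). This share was 46.7% of all autosomal regions and 39.8% of those low at days 8, 9 and 10, but 0.499% of the iPSC-only regions, which were likewise chosen for at least 100 in iPSC.

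Set against day 10, the median log2 difference at day 12 was 0.96 (quartiles 0.61 and 1.35) on the log2 scale with 1 normalised count added, which understates the change of low regions. It was 0.31 over all autosomal regions low at days 8, 9 and 10 and -0.07 over all autosomal regions. A rise of at least 2-fold was seen in 1034 reopened regions (47.1%), with a background of 13.4% in all autosomal regions and 24.7% in those low at days 8, 9 and 10, and a fall of at least 2-fold in 1 (background 13.7%). Choosing regions for a low day 10 favours a higher value in another library, and its part in these shares was not tested. Of the fibroblast-only regions, chosen to be below 50 both at day 10 and in iPSC, 1221 of 14887 (8.20%) were at least 2-fold higher at day 12 and 1103 (7.41%) at least 2-fold lower. Because these regions were also chosen to be low in iPSC, their shares do not measure that part in the reopened regions.

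The reads of all reopened regions together have little counting error. They are given here as shares of the reads in autosomal regions, which is the same scaling as equal autosomal totals. The regions themselves were still chosen on the authors' scale. Per 1000000 reads in autosomal regions, the MEF day 0 library had 13488 reads in them (13444 to 13532 by the 95% Wilson interval). Day 8 had 2555 (2536 to 2574), day 9 had 2743 (2725 to 2761) and day 10 had 2932 (2913 to 2951). Day 12 had 6688 (6656 to 6721), and iPSC had 13858 (13808 to 13908). From day 10 to day 12 the share rose by a factor of 2.28 (95% exact interval 2.26 to 2.30), and from day 12 to iPSC by 2.07 (2.06 to 2.08). By the authors' size factors the same rises were 2.07 and 2.57. In the fibroblast-only regions the factor from day 10 to day 12 was 1.14 by share of reads (1.14 to 1.15) and 1.03 by size factors. Reads of 1 pair are not independent, and no second culture shows how far these factors vary. The rule chose low values at day 10 and high values in iPSC, which favours both rises in the reopened regions. The part of this choice in the factors was not tested, and the intervals describe counting error alone.

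Whether the regions returned to the level of the MEFs depended on the scale. By share of reads, MEF day 0 had 0.973 times the value of iPSC over the reopened regions together (0.969 to 0.978). By the authors' size factors it had 1.96 times as many normalised counts. Single regions differed in the same way, with 1523 (69.4%) higher in MEF day 0 than in iPSC by normalised counts and 732 (33.3%) with equal autosomal totals. No direction between MEF day 0 and iPSC is therefore given for these regions.

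Reopened regions differed among themselves at day 12, and the 1491 with at least 50 normalised counts there had higher medians at days 8, 9 and 10 than the others. Their medians were 32.6, 30.7 and 35.5 on days 8, 9 and 10, against 24.4, 22.8 and 24.5 in the 705 that were still below 50 at day 12, 312 of which had at least 40. In iPSC the medians were 155 and 122. In MEF day 0 they were 213 and 203. Across the 2196 regions, log2 values at day 12 had a Pearson r of 0.555 with iPSC (Spearman rho 0.506), 0.525 with day 10 (rho 0.499), 0.348 with day 9 (rho 0.317), 0.345 with day 8 (rho 0.333) and 0.00989 with MEF day 0 (rho 0.000893). The cutoffs narrow the range in each of the 5 libraries, and regions of 1 library share its depth and preparation. The level at day 12 thus went with the level in iPSC and at day 10 and hardly with that in MEF day 0.

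The 4 regions with the largest ratio of day 12 to day 10 were also regions with a low value at day 10. Row 118645 on chromosome 2 had 3 reads at day 10 and 41 at day 12, a ratio of 15.6 in normalised counts (95% exact interval 4.97 to 78.6), but 14 and 20 reads at days 8 and 9. Row 9975 on chromosome 1 had 9 and 76 reads, a ratio of 9.62 (4.81 to 21.9). Row 3160 on chromosome 1 had 7 and 57 reads, a ratio of 9.28 (4.22 to 24.1). Row 39199 on chromosome 11 had 25 and 201 reads, a ratio of 9.16 (6.03 to 14.5), and was the only one of the 4 above 100 normalised counts at day 12, at 181 against 467 in iPSC. In all 4 day 10 was the lowest library, as a choice by this ratio favours, and the first was still below 50 at day 12 with 36.9 normalised counts.

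The 4 regions with the lowest day 12 relative to iPSC had 9.90 to 18.0 normalised counts at day 12. Row 119389 on chromosome 2 had 13 reads at day 12 and 122 in iPSC, a ratio of iPSC to day 12 of 13.1 in normalised counts (95% exact interval 7.36 to 25.2). Row 13473 on chromosome 1 had 20 and 156 reads, a ratio of 10.9 (6.80 to 18.3). Row 20539 on chromosome 10 had 11 and 84 reads, a ratio of 10.6 (5.65 to 22.1), and row 185010 on chromosome 7 had 11 and 83, a ratio of 10.5 (5.58 to 21.9). The first 2 had 4 reads each at day 10, and the last 2 had 18 and 24, more than at day 12. These regions were chosen for these ratios, and the intervals describe counting error in them.

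To ask whether regions open in MEFs were open more often at day 12, the reopened regions were set against the 8825 iPSC-only regions, which by the rule differ in the level in MEF day 0 alone. Of the iPSC-only regions 5551 (62.9%) had at least 50 normalised counts at day 12, and so the reopened regions were ahead by 5.00 percentage points. At 100 normalised counts the shares were nearly equal, 11.0% and 11.5%. The iPSC-only regions started lower, with a median of 25.3 normalised counts at day 10 against 32.4, and rose more, with a median log2 difference from day 10 to day 12 of 1.27 and a 2-fold rise in 66.6%. The median region had covered 42.5% of the log2 distance from day 10 to iPSC in the reopened and 47.8% in the iPSC-only set. By share of reads the iPSC-only set rose by a factor of 2.75 (95% exact interval 2.74 to 2.76) from day 10 to day 12.

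The direction of the difference turned on what was held equal. Within regions of 100 to 150, 150 to 250 and at least 250 normalised counts in iPSC, the reopened regions were more often open at day 12, with 55.8% against 48.1%, 79.3% against 73.7% and 95.5% against 93.7%. Within regions below 20, from 20 to 35 and from 35 to 50 normalised counts at day 10, they were less often open, with 27.8% against 39.3%, 65.6% against 68.6% and 86.1% against 87.7%. With both levels held in these ranges, an arrangement added after the data were seen, they were lower in 6 of 9 combinations and higher in 3, by -11.9 to 5.10 percentage points, the smallest combination holding 13 reopened regions. With equal autosomal totals the difference was -2.26 percentage points and with a closed cutoff of 25 it was -9.84.

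**Figure D3:**
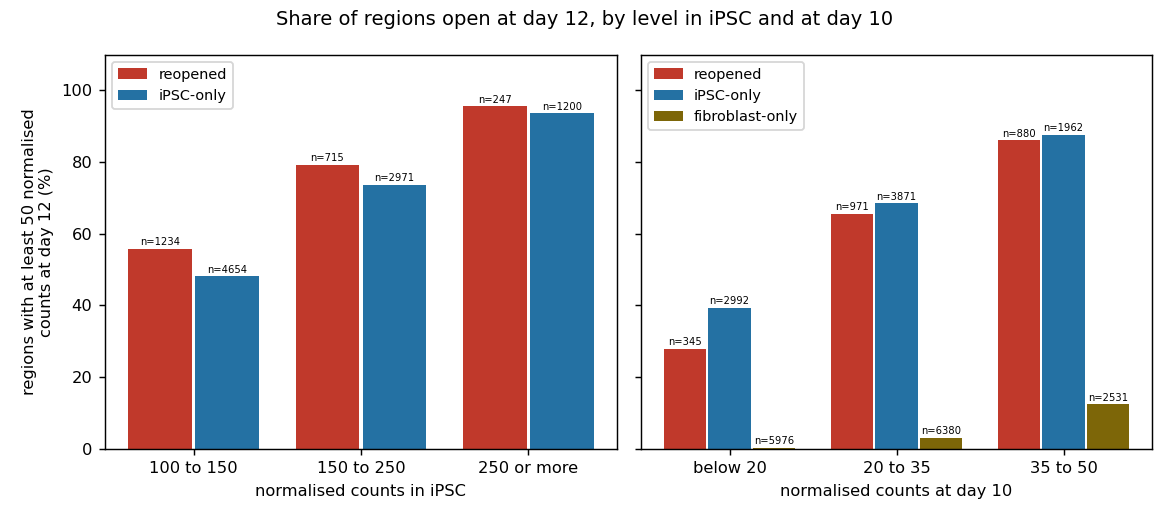
Share of regions with at least 50 normalised counts at day 12, in percent, by level in iPSC (left) and at day 10 (right), with bars for reopened, iPSC-only and, at right, fibroblast-only regions and the number of regions above each bar. At left the reopened bars are higher in each range, and at right the iPSC-only bars are, most of all below 20 normalised counts at day 10 (27.8% and 39.3%).

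The whole range of MEF levels was then followed among the 12721 regions that were low at days 8, 9 and 10 and open in iPSC. The share open at day 12 was 55.2% of 2514 regions with fewer than 10 normalised counts in MEF day 0, 63.4% of 3860 with 10 to 25, 70.0% of 2451 with 25 to 50 and 72.3% of 1700 with 50 to 100. Among reopened regions it was 67.1% of 1049 with 100 to 200, 69.3% of 658 with 200 to 400 and 67.7% of 489 with at least 400. The median at day 10 moved with the MEF level, from 21.3 in the lowest class to 28.4 at 25 to 50 and 33.2 at 400 and more, and its part in these shares was not tested. Above 25 normalised counts in MEF day 0 the share open at day 12 lay between 67.1% and 72.3%, without a steady course.

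**Figure D4:**
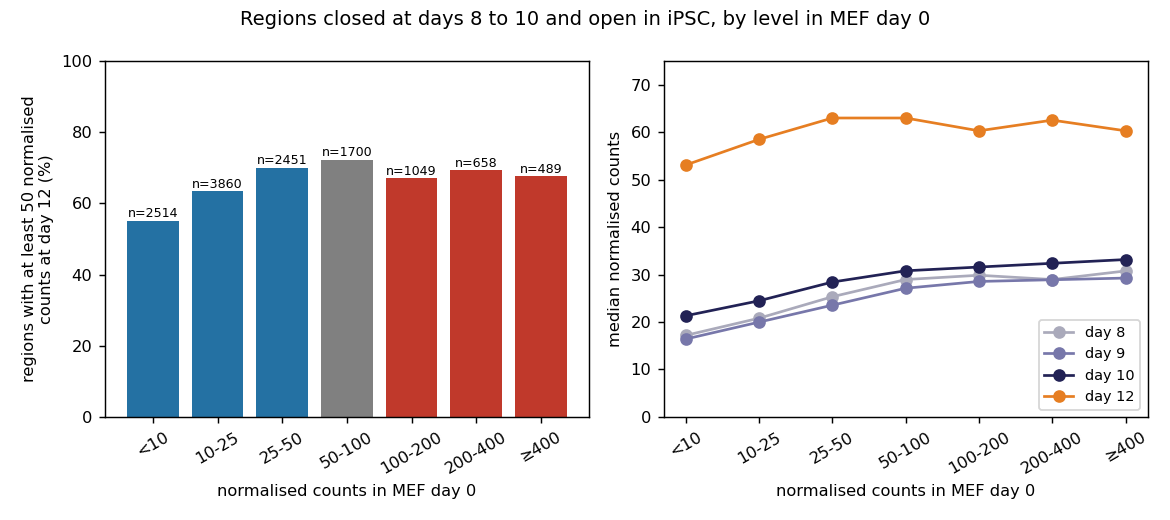
Regions below 50 normalised counts at days 8, 9 and 10 and open in iPSC, in classes of their normalised counts in MEF day 0, with the share that had at least 50 at day 12 in percent (left; blue, iPSC-only; red, reopened) and the median normalised counts at days 8, 9, 10 and 12 (right). The share rises from 55.2% to 72.3% up to 100 normalised counts in MEF day 0 and lies between 67.1% and 69.3% in the reopened classes, while the median at day 10 goes from 21.3 in the lowest class to 33.2 in the highest.

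Against the 14887 fibroblast-only regions the reopened regions differed clearly at day 12. Only 534 fibroblast-only regions (3.59%) had at least 50 normalised counts, and 0 had 100. Their median was 23.4 normalised counts at day 12 after 22.9 at day 10. Within the same ranges at day 10, below 20, 20 to 35 and 35 to 50 normalised counts, 0.351%, 3.12% and 12.4% of them were open at day 12, against 27.8%, 65.6% and 86.1% of the reopened regions. At day 8 the medians were closer, 29.9 in reopened and 20.8 in fibroblast-only regions. The sets lay further from each other on day 12 than on day 8. The rule holds both sets below 50 at day 8 but not at day 12, and tells them apart in iPSC, which favours such a difference. Its part was not tested.

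Reopened regions were spread over all 19 autosomes. Their number went from 65 on chromosome 19 to 176 on chromosome 2, and their share of the regions on a chromosome from 0.850% on chromosome 17 to 1.28% on chromosome 18. Of the regions open at both ends they were 4.90% on chromosome 17 and 8.85% on chromosome 18, the extremes. The share of them open at day 12 lay between 58.9% on chromosome 12 and 76.6% on chromosome 4. On every autosome this share was thus above the 43.8% of all autosomal regions. The iPSC-only regions, likewise chosen for at least 100 normalised counts in iPSC, had 62.9% over all autosomes, which lies within this range.

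The order of rows within a chromosome seemed to follow position in part, since log2 values of adjacent rows had a Pearson r of 0.179 to 0.229 in the 6 libraries, against 0.0827 to 0.125 at a distance of 5 rows and 0.00289 to 0.00783 at 1000 rows. Distances in bases are not given. Another reopened region lay within 5 rows of 343 reopened regions (15.6%), and 9.32% of all autosomal regions had a reopened region that near. Within 1 row the shares were 5.28% and 2.00%. Reopened regions in consecutive rows formed 52 pairs and 4 runs of 3, and so most of them were single.

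Neighbouring regions that did not meet the rule had a weak form of the same course. In the 4238 regions 1 row away, the median percentile among autosomal regions was 56.0 in MEF day 0, then 43.5, 44.8, 43.9 and 49.3 on days 8, 9, 10 and 12, and 57.9 in iPSC. For MEF day 0, day 8 and iPSC the values were 54.0, 47.4 and 53.7 at a distance of 3 rows and 48.8, 48.2 and 51.0 at 20 rows. These regions were not chosen by their own values, apart from leaving out reopened ones. Since values of adjacent rows went together within each library, choosing the reopened regions favours such a dip beside them. The part of this choice was not tested, and neighbours of the comparison sets were not examined. The dip faded within about 10 rows.

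**Figure D5:**
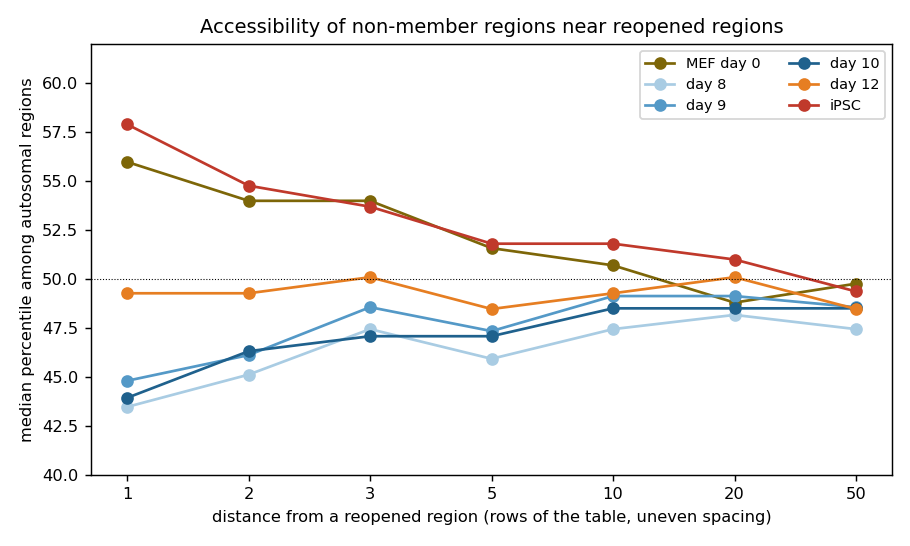
Median percentile, among autosomal regions of the same library, of regions that lie 1 to 50 rows from a reopened region and are not reopened themselves, with 1 line per library and the 50th percentile dotted. At 1 row MEF day 0 and iPSC stand at 56.0 and 57.9 and days 8 to 10 between 43.5 and 44.8, and the lines come together with distance.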

How the data were processed

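ATAC-seq was performed by the study with the Omni-ATAC protocol in 6 samples, 1 for each time point, and the labelled time point gave the groups. The authors ran the ENCODE ATAC-seq pipeline on paired-end reads with the mouse genome GRCm38/mm10, and joined alignments and peaks into 1 read count matrix with DiffBind (3.8). The deposited log2 values are those counts after division by DESeq2 (1.21.22) size factors, with 1 added, not split by allele. The table holds a row number, a chromosome and 6 values per region. Columns were matched to sample titles.

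Raising 2 to each value and subtracting 1 gave normalised counts. They were whole multiples of 1 step per library (100.0% of values within 0.001), which gave reads. The lowest value was 1 read, which can stand for 0 or 1. Size factors assume that the typical region does not change. Depth was 22067333 to 32844411 reads in regions. The rule for reopened regions, the comparison sets and the lists of single regions were chosen with earlier results of these data known. Single regions were named by rule: the 6 with the largest ratio of the lower open to the highest closed value, the 4 with the largest day 12 to day 10 ratio, the 4 with the smallest day 12 to iPSC ratio, and the regions on either side of each cutoff. No test across libraries was possible with 1 library per group. Intervals were 95% Wilson, Clopper-Pearson and exact Poisson. The procedure was tested on simulated data. Python 3.11.15, numpy 2.4.6, pandas 2.3.3, scipy 1.17.1 and matplotlib 3.10.9 were used. Alternatives were other scalings, cutoffs, pseudocount, fold and row window.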

Additional observations from a re-analysis of the deposited data

How the results depend on the processing

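The number of reopened regions, 2196, was 909 with equal autosomal totals, 351 with a closed cutoff of 25, 5090 with a closed cutoff of 75 and 269 with an open cutoff of 200, and stayed within 1.5 times under the other settings, between 1570 and 2674. The share open at day 12, 67.9%, became 77.4% with equal totals, 11.0% with 100 normalised counts required at day 12 and 33.3% with a closed cutoff of 25. The difference from iPSC-only regions, 5.00 percentage points, turned to -2.26 with equal totals, -0.44 with 100 required, -9.84 with a closed cutoff of 25 and -11.5, -2.96 and -1.53 in the ranges of the day 10 level. In the ranges of the iPSC level it moved to 7.67 in the lowest and 1.88 in the highest. The difference from fibroblast-only regions, 64.3 points, kept its sign in all 5 alternatives, with 11.0 when 100 were required and 33.1 with a closed cutoff of 25. The share with a 2-fold rise, 47.1%, was 60.6% with equal totals, 58.5% with quantile normalisation, 32.5% with a pseudocount of 10 and 3.96% for a 4-fold rise, where all autosomal regions had 16.7%, 17.1%, 7.70% and 2.08%. The share with another reopened region near was 5.28% within 1 row and 41.4% within 20. Requiring separate Poisson intervals removed no region, as the cutoffs guarantee it at these depths, and left 2171 with 2 reads counted as 1 fragment, which was added after the data were seen. No paired analysis was possible because each group is 1 library with no replicate numbers in the labels.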

Other observations

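On the X chromosome, left out of the rule, regions of this kind were a larger share of all regions than on any autosome. Of 5357 X-linked regions 131 (2.45%) had at least 100 normalised counts in MEF day 0 and iPSC and below 50 at days 8, 9 and 10, against 0.850% to 1.28% on the single autosomes. Of X-linked regions open at both ends these were 14.3%, against 4.90% to 8.85%. The X-linked share was also above the autosomal one with equal autosomal totals, at 0.784% against 0.417%, and with quantile normalisation over autosomes and X together, at 1.57% against 0.681%. The X-linked regions of this kind had median normalised counts of 173 in MEF day 0, of 25.3, 25.7, 31.6 and 61.2 on days 8, 9, 10 and 12, and of 150 in iPSC, and 90 of them (68.7%) had at least 50 at day 12, close to the autosomal 67.9%. X-linked regions in general were lower than autosomal ones at days 8, 9 and 10, with medians of 29.0, 29.3 and 28.4 normalised counts against 45.2, 43.5 and 41.1. They were also lower in MEF day 0, at 24.1 against 40.2, and higher in iPSC, at 67.7 against 41.4. Below 50 normalised counts at days 8, 9 and 10 were 3225 X-linked regions (60.2%), against 102917 of 218231 autosomal ones. The part of these levels in the X-linked share was not tested. A larger share on the X was not particular to the reopened kind. The iPSC-only kind made up 650 X-linked regions (12.1%), against 8825 of the 218231 autosomal regions. The fibroblast-only kind made up 227 (4.24%), a smaller share than the 14887 of the autosomal regions. The values sum both X chromosomes.

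The opposite course was more common at these cutoffs on the authors' scale. The alternative scalings and cutoffs were not applied to it. In 6496 autosomal regions (2.98%), normalised counts were below 50 in MEF day 0 and iPSC and at least 100 at days 8, 9 and 10, against the 2196 (1.01%) that were reopened.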
